A study of Mus musculus with 6 samples.

Results

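The receptors described here are 9 genes through which haematopoietic cells sense growth factors, namely Kit, Flt3, Csf1r, Csf3r, Csf2ra, Csf2rb, Il3ra, Il6ra and Epor. They were taken by symbol from a table of 55487 genes, and each symbol matched 1 gene. Gene coordinates below are those of GENCODE M21 on GRCm38. The table came from RNA sequencing of Kit-selected (labelled cKIT+) cells from mouse bone marrow, which were given a lentivirus that overexpresses MLLT3, sorted and grown in methylcellulose for 8 days. In the WT group (n = 3) the virus carried wild type MLLT3, and in the DM group (n = 3) it carried MLLT3 with the substitutions K63E and K67E. Both groups received 4-hydroxytamoxifen at 200 nM, which per the labels deletes the endogenous Mllt3 gene, so the cells of both groups are meant to depend on the viral copy. The medium of both groups held Flt3L at 10 ng/mL and, among others, EPO, SCF, GM-CSF, IL-3, IL-6 and IL-11 at 20 ng/mL each. Ligands were therefore supplied for 7 of the 9 receptor genes, and neither M-CSF, the ligand of the Csf1r product, nor G-CSF, that of the Csf3r product, is listed in the medium. The number of animals, their strain and age, and whether replicates came from separate cultures are not given in the sources used here, so p-values measure only the spread between these libraries, which may be technical.

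MLLT3 is a subunit of complexes that help RNA polymerase to elongate, and its YEATS domain binds acylated lysines of histones. The receptors fall into a pair of families. Kit, Flt3 and the M-CSF receptor are tyrosine kinases that a ligand brings together, while the others belong to the cytokine receptor family, have no kinase of their own and signal through JAK kinases and STAT factors. In bone marrow, Kit marks stem and progenitor cells and stays high on mast cells, Flt3 marks multipotent and lymphoid-primed progenitors, Csf1r the monocyte and macrophage line, Csf3r neutrophils and their precursors, and Epor erythroid progenitors. IL-3 and GM-CSF each use a ligand-specific alpha chain (Il3ra, Csf2ra) and the shared beta chain encoded by Csf2rb. IL-6 binds Il6ra, and the complex signals through Il6st, also called gp130.

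All values are regularized log (rlog) values, which are log2 counts scaled for library size and pulled toward each gene's mean, which can understate changes of genes with low values. The values hold no counts, and the depth of the libraries is unknown. A change is the mean of the 3 DM libraries minus that of the 3 WT libraries. Changes were tested with limma in the 18766 genes whose mean reached 3. Adjusted p-values are those of Benjamini and Hochberg over all of these genes, and a gene under 0.05 is called. Over all tested genes 2611 passed (13.9%), 1727 of them higher in DM (9.2%) and 884 lower (4.71%), while after quantile normalization 1362 were higher and 1292 lower. The median change was 0.01 and the median absolute change 0.1. The number called dropped to 1185 if WT replicate 1 was left out, to 1119 without DM replicate 2, and to 1537 without DM replicate 3. It was 1998 without WT replicate 3, and 1799 of 47934 genes without the filter on the mean. Counts of called list genes given below for these fits are to be read beside these totals. Mllt3 itself, which is both deleted and supplied, had values of 12.87, 12.6 and 12.44 in WT against 12.44, 12.03 and 11.99 in DM, a change of -0.48 (limma adjusted p 0.0448) with overlapping groups. These values do not separate the viral from the endogenous transcript, and the call was lost on leaving out WT replicate 1, WT replicate 2, DM replicate 2 or DM replicate 3 (limma adjusted p 0.152, 0.0606, 0.15 and 0.161).

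All 9 receptor genes passed the filter on the mean. Of these, 3 passed the test, against 13.9% of all tested genes: Csf1r and Csf2ra were higher in DM, where 9.2% of all tested genes were called higher, and Flt3 was lower, where 4.71% were. In 3 of the 9 genes the groups were fully separate, against 35.8% of all tested genes. In Csf1r and Csf2rb all DM libraries were above all WT libraries (21.5% of all tested genes), and in Flt3 they were below (14.3%). The median change over the 9 genes was 0.12 on the log2 scale, 0.04 after quantile normalization and 0.09 after each library was centred on its median. Only the Csf1r call held in all 12 alternative fits. In all, 1 of the 9 was called after quantile normalization, and likewise on leaving out WT replicate 1, WT replicate 3 or DM replicate 2. In these fits 2654, 1185, 1998 and 1119 of the 18766 tested genes were called, in the same order.

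**Figure D1:**
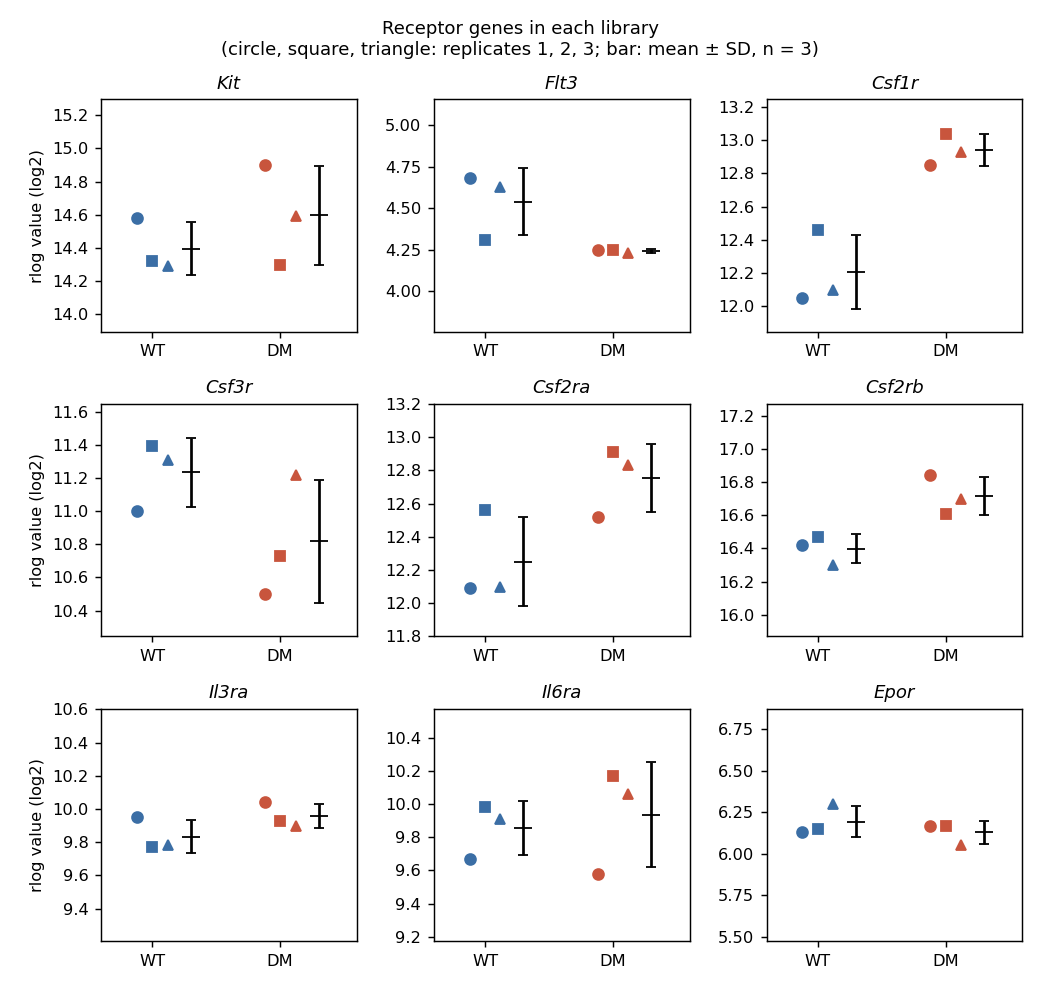
rlog value (log2 scale) of each receptor gene in the 6 libraries, blue for WT and red for DM, with circles, squares and triangles for replicates 1, 2 and 3 and the mean ± SD (n = 3) beside them; every panel spans the same range of the log2 scale. The DM values of Csf1r, between 12.85 and 13.04, all lie above the WT values, between 12.05 and 12.46, while the groups overlap for Kit, Csf3r, Csf2ra, Il3ra, Il6ra and Epor.

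Among the receptor tyrosine kinases, Csf1r (ENSMUSG00000024621.16; chromosome 18, 61100598 to 61132149, plus strand) had rlog values of 12.05, 12.46 and 12.1 in WT, given in the order of the replicate numbers here and throughout, against 12.85, 13.04 and 12.93 in DM. Every DM library was above every WT library, and WT replicate 2 was the highest of its group. The mean went from 12.2 ± 0.22 (SD, n = 3) to 12.94 ± 0.0957 (SD, n = 3), so Csf1r rose by 0.73 (SE 0.109, limma adjusted p 0.00415), a fold of 1.66 on the rlog scale with a 95% interval from 1.41 to 1.97. Of all tested genes, 1.45% had an absolute change as large. Over the alternatives the change was between 0.61, after quantile normalization, and 0.86, without WT replicate 2, with limma adjusted p from 0.000371 to 0.0199. Hmgxb3, whose exons overlap Csf1r on the opposite strand, changed by 0.14 (limma adjusted p 0.243), and the use of strand in counting is not given in the sources used here.

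Kit (ENSMUSG00000005672.12; chromosome 5, 75574916 to 75656722, plus strand) encodes the receptor for SCF and was the gene used to select the cells. Its rlog values were 14.58, 14.32 and 14.29 in WT against 14.9, 14.3 and 14.59 in DM. DM replicate 1 was the highest and DM replicate 2 lay among the WT libraries, so the groups overlapped. WT averaged 14.39 ± 0.157 (SD, n = 3) and DM 14.6 ± 0.296 (SD, n = 3), a difference of 0.2 with a 95% interval from -0.12 to 0.53 (limma adjusted p 0.368). After quantile normalization it was 0.06, and on leaving out DM replicate 1 it was 0.05. Per exon length, Kit was the second highest of the 9 genes in both groups, so the transcript that the cells were selected for was still present after culture.

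Flt3 (ENSMUSG00000042817.15; chromosome 5, 147330741 to 147400489, minus strand) encodes the receptor for Flt3L, and it lies on the same chromosome as Kit. Per exon length it was the lowest of the 9 genes. It had rlog values of 4.68, 4.31 and 4.63 in WT against 4.25, 4.25 and 4.23 in DM. The 3 DM libraries lay within 0.02 of each other and below all WT libraries, of which replicate 2 was the closest to them. Flt3 fell by 0.3 (SE 0.0878, limma adjusted p 0.0494), with means of 4.54 ± 0.202 (SD, n = 3) and 4.24 ± 0.00901 (SD, n = 3). This call passed in 2 of 11 alternative fits, among them the fit without WT replicate 2 (-0.42, limma adjusted p 0.00218). It was lost without WT replicate 1 (-0.23, limma adjusted p 0.163), without WT replicate 3 (-0.25, 0.101), and without DM replicate 1 (0.104), 2 (0.122) or 3 (0.133). At values this low the rlog transform pulls libraries toward a common value, which can narrow both the change and the spread.

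**Figure D2:**
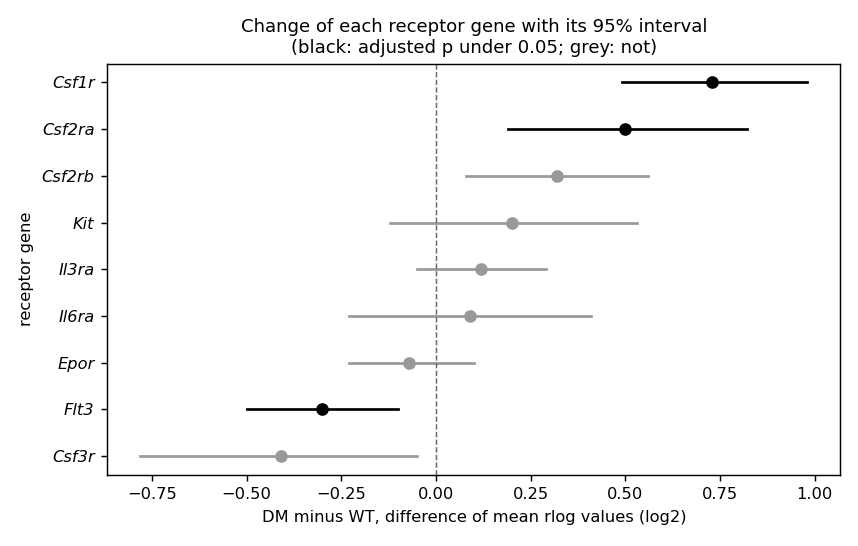
Change of each receptor gene, DM minus WT, as the difference of mean rlog values (points, log2 scale) with its 95% interval from limma (lines), black where the adjusted p was under 0.05 and grey elsewhere. Csf1r at 0.73 and Csf2ra at 0.5 stand to the right of 0 and Flt3 at -0.3 to the left, and the intervals, which are not adjusted over all genes, of Csf2rb and Csf3r also leave out 0.

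The receptors for G-CSF and EPO each pair with a second copy of themselves. Csf3r (ENSMUSG00000028859.14; chromosome 4, 126024550 to 126044440, plus strand) had rlog values of 11, 11.39 and 11.31 in WT against 10.5, 10.73 and 11.22 in DM. DM replicates 1 and 2 were below all WT libraries, while DM replicate 3 lay within the WT range. The means were 11.23 ± 0.204 (SD, n = 3) and 10.82 ± 0.365 (SD, n = 3), a difference of -0.41 with a 95% interval from -0.78 to -0.05, which did not pass the threshold (limma adjusted p 0.131). On leaving out DM replicate 3 it was -0.61 and passed (limma adjusted p 0.0294), while it was -0.26 (limma adjusted p 0.352) on leaving out DM replicate 1.

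Epor (ENSMUSG00000006235.6; chromosome 9, 21958897 to 21963506, minus strand) had rlog values of 6.13, 6.15 and 6.3 in WT against 6.17, 6.17 and 6.05 in DM. The groups overlapped, with WT replicate 3 the highest and DM replicate 3 the lowest of the 6. Its difference was -0.07, with a 95% interval from -0.23 to 0.1 (limma adjusted p 0.579).

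For the GM-CSF and IL-3 receptors the alpha and beta chains are given together. Csf2ra (ENSMUSG00000059326.7; chromosome 19, 61223957 to 61228429, minus strand), the GM-CSF alpha chain, had rlog values of 12.09, 12.56 and 12.1 in WT against 12.52, 12.91 and 12.83 in DM. DM replicate 1 lay just below WT replicate 2, and the other DM libraries were above all WT libraries. Csf2ra rose by 0.5 (SE 0.14, limma adjusted p 0.0409), from 12.25 ± 0.269 (SD, n = 3) to 12.75 ± 0.206 (SD, n = 3), a fold of 1.42 on the rlog scale with a 95% interval from 1.14 to 1.76. The call passed in 6 of 12 alternative fits. It was lost after quantile normalization (0.38, limma adjusted p 0.0725), without the filter on the mean (0.0573), and without WT replicate 1 (0.42, 0.14), WT replicate 3 (0.43, 0.0979), DM replicate 2 (0.42, 0.142) or DM replicate 3 (0.46, 0.132).

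Il3ra (ENSMUSG00000068758.8; chromosome 14, 14346275 to 14356011, plus strand), the IL-3 alpha chain, had rlog values of 9.95, 9.77 and 9.78 in WT against 10.04, 9.93 and 9.9 in DM. WT replicate 1 lay within the DM range, so the groups overlapped. The difference of 0.12 had a 95% interval from -0.05 to 0.29 (limma adjusted p 0.313) and ranged from 0.04 to 0.18 over the alternatives. An antisense gene, Gm48860, overlaps its exons, so that without strand their reads cannot be told apart.

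Csf2rb (ENSMUSG00000071713.6; chromosome 15, 78325752 to 78353847, plus strand), the beta chain shared by the IL-3, GM-CSF and IL-5 receptors, had rlog values of 16.42, 16.47 and 16.3 in WT against 16.84, 16.61 and 16.7 in DM. All DM libraries were above all WT libraries. The means were 16.4 ± 0.0879 (SD, n = 3) and 16.72 ± 0.119 (SD, n = 3), and the difference of 0.32 (SE 0.108) did not pass the threshold (limma adjusted p 0.0817). It was 0.12 after quantile normalization, and it passed without the filter on the mean (limma adjusted p 0.0239) and without the mean-variance trend (0.0282). Mice carry a near copy next to it, Csf2rb2, whose product serves the IL-3 receptor only. Csf2rb2 had values of 16.2, 16.05 and 16.01 in WT against 16.67, 16.29 and 16.4 in DM, a difference of 0.37 (limma adjusted p 0.0716).

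The coding sequences of these copies are shown because their likeness bears on how reads could be assigned. In GENCODE M21 the longest open reading frames of Csf2rb (2691 bases) and Csf2rb2 (2637 bases) had 95.4% identical bases over 2629 aligned positions and an identical run of 242 bases. Of all windows of 50 bases, 26% of those in Csf2rb also occurred in Csf2rb2. The first 90 coding bases, in lower case with the 3 differing bases in capitals, read as follows.
Csf2rb, coding bases 1 to 90: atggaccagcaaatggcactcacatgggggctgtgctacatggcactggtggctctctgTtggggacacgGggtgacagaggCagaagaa
Csf2rb2, coding bases 1 to 90: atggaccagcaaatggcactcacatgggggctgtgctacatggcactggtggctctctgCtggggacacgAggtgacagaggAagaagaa
The window of 90 aligned bases with the most differences held 16 of them, again in capitals.
Csf2rb, coding bases 308 to 397: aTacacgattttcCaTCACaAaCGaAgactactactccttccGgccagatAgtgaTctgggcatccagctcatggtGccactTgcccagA
Csf2rb2, coding bases 311 to 400: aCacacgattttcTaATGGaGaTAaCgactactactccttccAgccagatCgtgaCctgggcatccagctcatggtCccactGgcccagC
How the authors treated reads that match both copies is not given in the sources used here, so the values of Csf2rb and Csf2rb2 are uncertain as separate measurements.

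Il6ra (ENSMUSG00000027947.11; chromosome 3, 89864059 to 89913196, minus strand), the ligand-binding chain for IL-6, had rlog values of 9.67, 9.98 and 9.91 in WT against 9.58, 10.17 and 10.06 in DM. DM replicate 1 was the lowest of the 6 and DM replicate 2 the highest. The difference of 0.09 had a 95% interval from -0.23 to 0.41 (limma adjusted p 0.716), and stood at -0.03 on leaving out DM replicate 2 and at 0.27 on leaving out DM replicate 1. The antisense gene Gm42809, which overlaps exons of Il6ra, had a change of -0.07 (limma adjusted p 0.393). Il6st, the signalling chain shared by the IL-6 and IL-11 receptors, had values of 10.29, 10.64 and 10.27 in WT against 10.55, 10.89 and 10.84 in DM, a difference of 0.36 (limma adjusted p 0.074). Il6st passed with the filter at a mean of 5 (limma adjusted p 0.047) and on leaving out WT replicate 2 (0.48, 0.016) or DM replicate 1 (0.46, 0.0329). Il11ra1, the alpha chain for IL-11, had values of 9.93, 10.36 and 9.65 in WT against 10.72, 10.83 and 10.53 in DM, all DM libraries above all WT libraries. Il11ra1 rose by 0.72 (SE 0.155, limma adjusted p 0.0153), and lost its call without WT replicate 1 (0.69, 0.0521) and without DM replicate 2 (0.65, 0.0593).

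Levels of different genes were compared only per length, as the rlog value minus the log2 of the gene's exon length in kilobases from GENCODE M21. On this scale Csf2rb was highest at 13.54 in WT and 13.85 in DM, followed by Kit at 11.24 and 11.44, Csf2ra at 10.73 and 11.23, Csf1r at 9.67 and 10.41, and Csf3r at 9.38 and 8.97. Il3ra followed at 8.27 and 8.39, Il6ra at 6.74 and 6.83, Epor at 5.2 and 5.14, and Flt3 at 1.92 and 1.62. The order of the 9 genes was the same in WT and in DM, and with the longest transcript in place of the exon length. Neighbours that overlapped within a group were Csf1r, between 9.52 and 9.93, with Csf3r, between 9.15 and 9.53, in WT, and Kit, between 11.15 and 11.74, with Csf2ra, between 11 and 11.39, in DM. In DM, Csf1r (10.32 to 10.51) and Csf3r (8.65 to 9.37) no longer overlapped on this scale.

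Differences between a pair of receptors within the same library were set against the grouping with an exact two-sided permutation test of 3 against 3 libraries, whose smallest p is 0.1. Csf1r minus Csf3r was 1.05, 1.07 and 0.79 in WT against 2.34, 2.31 and 1.71 in DM. The lowest DM value was above the highest WT value, and the group means differed by 1.15 (exact permutation p 0.1, 0.2 adjusted over the 6 pairs compared). Kit minus Flt3 differed by 0.5, with 9.89, 10.01 and 9.66 in WT against 10.65, 10.06 and 10.36 in DM, and Il6ra minus Il6st by -0.27, with -0.63, -0.66 and -0.36 in WT against -0.97, -0.71 and -0.78 in DM; for both the exact permutation p was 0.1 (0.2 adjusted). Csf1r minus Kit differed by 0.53 and Il3ra minus Csf2rb by -0.2 (exact permutation p 0.2 each, 0.24 adjusted), and Csf2ra minus Csf2rb by 0.19 (exact permutation p 0.4). None of these tests could therefore pass 0.05.

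Markers of the cell types that such cultures can hold moved beside the receptors, and their part in the receptor results was not tested. In whole cultures, fewer cells of a type and less RNA per cell cannot be told apart. The monocyte and macrophage list, which includes Csf1r, had 13 of 15 tested genes called, against 13.9% of all tested genes. It had 11 called higher (9.2% of all tested genes) and 2 lower (4.71%) in DM, with a median change of 0.63. Its summed level, as 2 to the power of the rlog values, was between 330000 and 528000 in WT and between 647000 and 834000 in DM. The 2 genes called lower were Ly6c2 (-1.13, limma adjusted p 0.00361) and Ccr2 (-0.78, 0.00975). C1qb and Cx3cr1, each with a change of -0.05, were not called (limma adjusted p 0.506 and 0.706). C1qa, a macrophage marker, was under the filter, between 2.45 and 2.56 in all libraries. Without Csf1r, the mean of the list relative to its 6-library mean was -0.27, 0.01 and -0.32 in WT against 0.06, 0.28 and 0.24 in DM, so WT replicate 2 was the highest WT library for the list as for Csf1r and Csf2ra. The change of Csf1r was larger than that of the list mean by 0.35 (exact permutation p 0.1, the smallest possible, 0.3 adjusted over 6 such comparisons), and that of Csf2ra by 0.11 (exact permutation p 0.2).

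The neutrophil list had 13 of 16 genes called, all 13 lower in DM, where 4.71% of all tested genes were called lower. The list had a median change of -1.13 and a summed level between 401000 and 548000 in WT and between 164000 and 290000 in DM. Its mean relative to the 6 libraries was 0.59, 0.84 and 0.81 in WT against -1, -0.84 and -0.4 in DM. DM replicate 3 was the highest DM library for this list and for Csf3r. The list mean changed by -1.49 against -0.41 for Csf3r, a difference of 1.08 (exact permutation p 0.1, the smallest possible, 0.3 adjusted). Mpo, Elane and Prtn3, which encode granule proteins made at the promyelocyte stage, changed by -4.23, -3.96 and -3.37 (limma adjusted p 0.000444, 0.000118 and 0.000118). Of the genes of later granules, Camp, Ngp and Ltf also fell, with changes of -1.66, -1.62 and -1.28 (limma adjusted p 0.00514, 0.00787 and 0.0419). The 3 list members that were not called were Lcn2 (-0.45, limma adjusted p 0.15), Mmp9 (-0.21, 0.498) and Mmp8 (0.5, 0.0521), and Mmp8 was the single member with a positive difference.

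**Figure D3:**
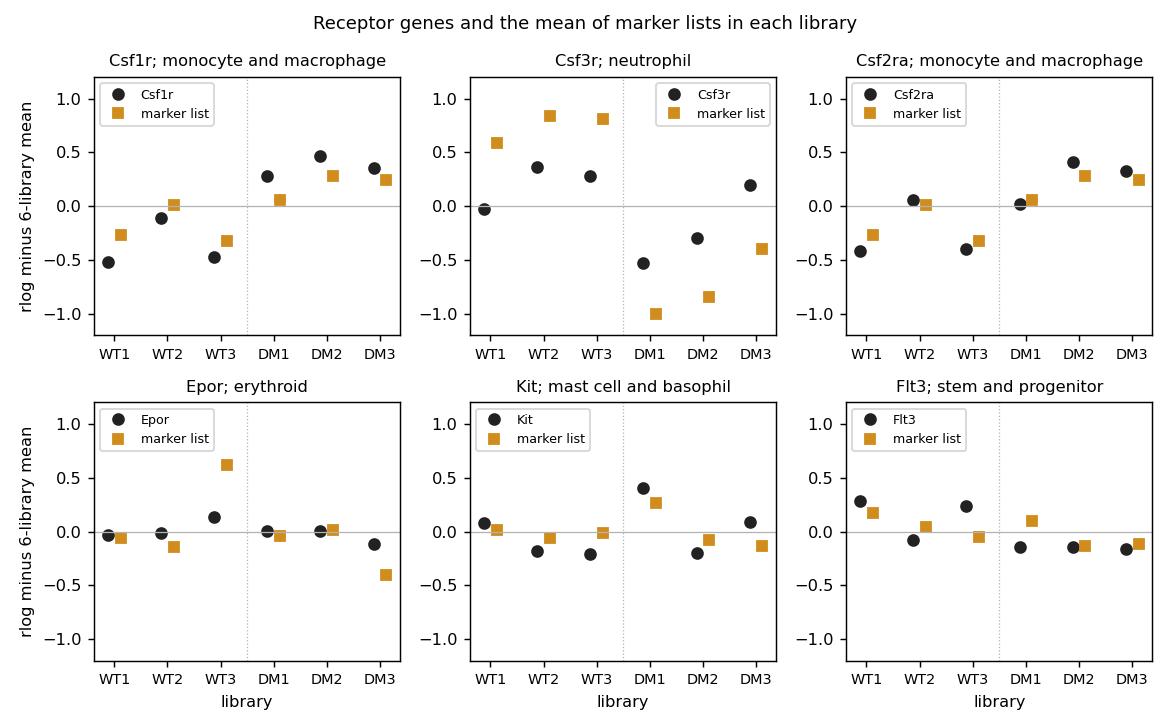
rlog value of 6 receptor genes (black circles) and mean of a marker list without the receptor genes (orange squares) in each library, both minus their own mean over the 6 libraries (log2 scale). Csf1r and its list are both lower in WT than in DM, and the neutrophil list runs from 0.84 in WT replicate 2 to -1 in DM replicate 1, a wider span than that of Csf3r.

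Of 12 tested erythroid genes, Epor among them, 0 were called by limma, against 13.9% of all tested genes. Of these 12, 0 had an unadjusted limma p under 0.05, against 5415 of the 18766 tested genes. All 12 changes were negative, from -0.57 to -0.07, with a median of -0.27. This median moved to -0.05 on leaving out WT replicate 3, to -0.13 on leaving out DM replicate 3 and to -0.43 on leaving out WT replicate 2. Without WT replicate 2, 1 was called lower, and the other alternative fits also called 0. Their summed level was between 7230 and 9130 in WT and between 6070 and 8060 in DM. WT replicate 3 had the highest list mean (0.62) and the highest Epor value, and DM replicate 3 the lowest of both. Of the globin genes of the list, Hba-a1 was at the lowest value of the table, -1.97, in all libraries. Hba-a2 lay between 0.36 and 0.38, and Hbb-bt between 6.95 and 8.37. How reads that match more than 1 gene were treated is not given, so these values do not show whether alpha globin was expressed.

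Mast cell and basophil genes are markers of lines of which mast cells keep Kit. Of these, 3 of 12 were called, 2 higher and 1 lower, against 13.9% of all tested genes, with a median of 0.07. Their summed level was between 492000 and 633000 in WT and between 500000 and 694000 in DM. The mast cell carboxypeptidase gene Cpa3 had values from 17.6 to 18.26. The mean of this list was highest in DM replicate 1, at 0.27, which also had the highest Kit value. DM replicate 3 had the lowest list mean, -0.13, but a Kit value of 14.59, lower only than that of DM replicate 1. In this list 1 gene was called on leaving out WT replicate 2, WT replicate 3 or DM replicate 2, and also without the filter on the mean, without the mean-variance trend, or after median centring. On leaving out WT replicate 1, 1 was called higher and 3 lower, Mcpt8 (-0.81, limma adjusted p 0.0174) and Prss34 (-0.84, 0.0174), both of basophils, being added. The median of the list was -0.16 after quantile normalization and ran from -0.07, without DM replicate 1, to 0.2, without WT replicate 1, when a library was left out. Eosinophil genes had 3 of 9 called, all lower, where 4.71% of all tested genes were called lower. Their median change was -0.17, with a summed level from 38800 to 42200 in WT and from 18500 to 24400 in DM.

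Megakaryocyte genes had 2 of 9 called, both higher (median 0.19; sums of 19300 to 23100 in WT and 23400 to 30400 in DM), with 1 called without DM replicate 2 and medians from 0.07, without that library, to 0.34, without DM replicate 3. The median was 0.08 without WT replicate 2 and 0.32 without WT replicate 3. Over all tested genes, 13.9% were called, 9.2% higher and 4.71% lower, which applies to each list of this paragraph. The stem and progenitor list, which includes Kit and Flt3, had 5 of 13 called, 2 higher and 3 lower (median -0.01; 56600 to 68700 and 53700 to 75700), with 2 called on leaving out DM replicate 2, 3 on leaving out DM replicate 3, and medians from -0.15, without DM replicate 1, to 0.1, without DM replicate 2. Lymphoid genes had 3 of 7 tested called, 1 higher and 2 lower (median -0.1; 2840 to 4480 and 5160 to 5850). The gene called higher was Il7r, with rlog values of 11.49, 11.94 and 11.25 in WT against 12.28, 12.47 and 12.3 in DM. Il7r made up most of the summed level in every library, and the other 6 tested genes all had lower means in DM. Of these, Nkg7 fell by 1.89 (limma adjusted p 0.000155) and Cd79b by 0.27 (0.0166), the latter losing its call on leaving out DM replicate 1 or 2. Cd3e and Cd3g, which define T cells, and Dntt and Rag2, which act in lymphoid precursors, were under the filter, and none of the listed markers was at exactly 0.

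For the 3 called receptor genes, the tested genes with the nearest pattern were found by the root mean square difference of values centred on each gene's mean over the 6 libraries. Nearest to Csf1r were Slc15a3 (0.0276), Mcoln2 (0.0321) and Fnip2 (0.0332), which changed by 0.73, 0.74 and 0.74. Nearest to Csf2ra were Arrdc4 (0.0328), Sh3bp2 (0.0362) and F7 (0.0433), which changed by 0.49, 0.54 and 0.51. Nearest to Flt3 were Chit1 (0.0398), Atp9a (0.0429) and Mdm1 (0.0506), with differences of -0.27, -0.32 and -0.31, the last not past the threshold (limma adjusted p 0.0651).

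Of 11 listed ligand genes, 7 passed the filter and, against 13.9% of all tested genes, 1 was called. This was Csf1, which encodes M-CSF, the ligand of the Csf1r product. Csf1 had rlog values of 12.54, 12.82 and 12.67 in WT against 13.17, 13.23 and 13.28 in DM, all DM libraries above all WT libraries, and rose by 0.55 (SE 0.0864, limma adjusted p 0.00535). It was called in every alternative fit. Il34, the other ligand of that receptor, lay between 3.19 and 3.35. Epo, Il3 and Il11 were among those under the filter, and Csf3, which encodes G-CSF, lay between 5.56 and 5.9 (limma adjusted p 0.105). Kitl, which encodes SCF, lay between 3.42 and 3.62.

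Other receptor chains had 9 of 24 genes called, all 9 higher in DM, where 13.9% of all tested genes were called and 9.2% were called higher. Their median change was 0.23, and 0.14 after quantile normalization, against 0.01 over all tested genes in both. The largest rises besides Il11ra1 were in Il7r (0.79, limma adjusted p 0.0094), the chain for IL-7 and TSLP, in Il2rg (0.48, 0.00423), the gamma chain shared by the IL-2 family, and in Il10rb (0.43, 0.0128), a chain of the IL-10 family. Il10rb lost its call without WT replicate 1 (0.36, limma adjusted p 0.0567) and without DM replicate 2 (0.37, 0.0571). In the list 2 were called on leaving out WT replicate 1 or DM replicate 2, 4 on leaving out DM replicate 3, and 5 on leaving out WT replicate 3 or the filter on the mean. After quantile normalization 6 were called higher and 1 lower, the latter being Ifngr1 (-0.36, limma adjusted p 0.00528), a chain of the interferon gamma receptor, named after its values were seen. In the main fit Ifngr1 had a change of -0.26 (limma adjusted p 0.0553). It was also called lower with the filter at a mean of 5 (limma adjusted p 0.0371), after median centring (0.02), with the replicate block (0.0321) and without WT replicate 3 (0.0296).

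JAK kinases and STAT factors act directly downstream of the cytokine receptors. Of the 11 JAK and STAT genes, 1 passed, against 13.9% of all tested genes. This was Jak3 (-0.28, limma adjusted p 0.032), the JAK that pairs with the Il2rg product. Jak3 lost its call on leaving out any library other than WT replicate 3. On leaving out WT replicate 2, 3 others were called higher. Jak2, the kinase of the EPO, GM-CSF and IL-3 receptors, had a change of -0.05 (limma adjusted p 0.741), Stat5a one of 0.07 (0.507) and Stat3 one of -0.02 (0.885). Among 24 adaptors and kinases, 8 were called, all higher, against 9.2% of all tested genes, with a median of 0.18 and 0.08 after quantile normalization. The largest were Pik3r5 (0.64, limma adjusted p 0.0159), a regulatory subunit of PI3 kinase gamma, Gab1 (0.56, 0.00743), a docking protein of receptor kinases, Tyrobp (0.48, 0.0149), an adaptor of myeloid receptors also called DAP12, and Syk (0.45, 0.0162), the kinase that it recruits. Pik3r5, Tyrobp and Syk each lost the call without WT replicate 1 (limma adjusted p 0.0623, 0.069 and 0.0776) and without DM replicate 2 (0.061, 0.0634 and 0.073). Gab1 was then the 1 gene called, while 4 were called without DM replicate 3 and 5 without WT replicate 3.

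**Figure D4:**
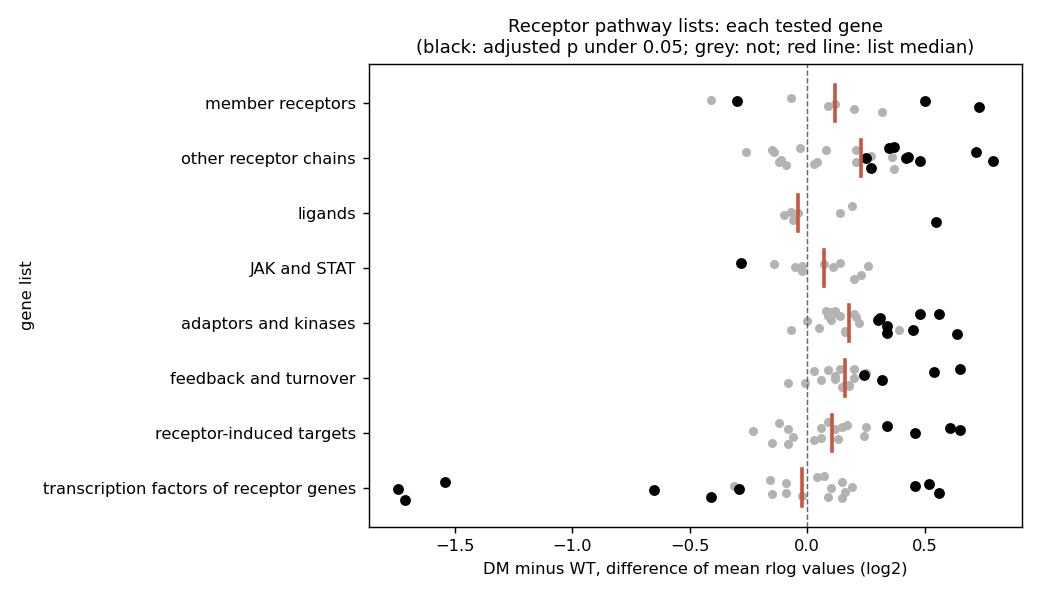
Change of each tested gene of the receptor pathway lists, DM minus WT (log2 scale), black where the limma adjusted p was under 0.05 and grey elsewhere, with the list median as a red line; vertical scatter within a list has no meaning. The called genes of the other receptor chains, the adaptors and kinases, and the feedback list lie to the right of 0, and the transcription factor list has called genes on both sides.

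Genes that restrain or shed receptors had 4 of 19 called, all higher, against 9.2% of all tested genes (list median 0.16, and 0.05 after quantile normalization). Socs3, an inhibitor of gp130 and G-CSF receptor signalling, rose by 0.65 (limma adjusted p 0.00307), from 11.09, 11.38 and 11.11 in WT to 11.76, 11.89 and 11.9 in DM. Adam17, a protease that sheds receptors including those for M-CSF and IL-6, rose by 0.54 (limma adjusted p 0.00636). Both were called in every alternative fit. Socs6 (0.32, limma adjusted p 0.0318) and Pias3 (0.24, 0.031) were the others, and 2 genes were called on leaving out WT replicate 1, WT replicate 3, DM replicate 2, DM replicate 3 or the filter on the mean. Cish, a target and inhibitor of STAT5, had a change of 0.09 (limma adjusted p 0.432).

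Of 20 genes induced by these receptors, 4 were called, all higher, against 9.2% of all tested genes, with a list median of 0.1 that was -0.01 after quantile normalization. Besides Socs3 these were Ccnd1 (0.61, limma adjusted p 0.0347), which encodes cyclin D1, Bcl2l1 (0.46, 0.00636), which encodes the survival protein BCL-XL, and Mcl1 (0.34, 0.0349), another survival gene. Ccnd1 and Mcl1 lost their calls on leaving out WT replicate 1, WT replicate 3, DM replicate 2 or DM replicate 3, and 2 of the list were called in each of these fits. They also lost them after quantile normalization, where 2 genes were called higher and 1 lower. The latter was Pim1, a STAT5 target, which had a change of -0.06 (limma adjusted p 0.619) without that normalization and -0.24 (0.0192) with it.

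Transcription factors known to act on receptor genes had 9 of 23 called, 3 higher and 6 lower, with a median of -0.02. Of all tested genes, 13.9% were called, 9.2% higher and 4.71% lower. Cebpe, a factor of late neutrophil differentiation, fell by 1.74 (limma adjusted p 0.000157), from 10.47, 10.64 and 10.6 in WT to 8.51, 8.8 and 9.17 in DM. Gfi1, a transcriptional repressor that acts within the neutrophil line, fell by 1.54 (limma adjusted p 0.000306). Myb, a factor of progenitors, fell by 0.65 (limma adjusted p 0.0127), with its call lost without DM replicate 2 (0.0529) and DM replicate 3 (0.0526). Mitf, a factor of mast cells, rose by 0.52 (limma adjusted p 0.00293). Irf8, a factor of the monocyte line, rose by 0.56 (limma adjusted p 0.016), and lost its call without WT replicate 1 (0.0627), DM replicate 2 (0.0632) or DM replicate 3 (0.0608). Spi1, which encodes PU.1, a factor of many myeloid receptor genes, had a change of 0.15 (limma adjusted p 0.317), Cebpa one of -0.16 (0.486), Gata1 one of 0.1 (0.572) and Gata2 one of -0.02 (0.915). In this list 5 were called on leaving out WT replicate 1 or DM replicate 3, and 4 on leaving out DM replicate 2.

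The upstream sequences of Csf2ra and Csf3r are shown because these had the largest change in each direction among the receptor genes matched to a RefSeq promoter, though that of Csf3r did not pass the test. They are from RefSeq on GRCm38.p6, 5′ to 3′ on the strand of the gene, and end before both the RefSeq and the GENCODE M21 start. Capitals mark a match to the C/EBP letters TTNNGNAA on either strand.
Csf2ra, chr19:61228430-61228668, minus strand: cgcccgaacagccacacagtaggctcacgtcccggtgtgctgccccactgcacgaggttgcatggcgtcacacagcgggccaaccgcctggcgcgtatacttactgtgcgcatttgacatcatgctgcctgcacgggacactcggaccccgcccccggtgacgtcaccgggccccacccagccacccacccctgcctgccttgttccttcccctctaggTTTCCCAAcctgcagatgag
Csf3r, chr4:126024409-126024549, plus strand: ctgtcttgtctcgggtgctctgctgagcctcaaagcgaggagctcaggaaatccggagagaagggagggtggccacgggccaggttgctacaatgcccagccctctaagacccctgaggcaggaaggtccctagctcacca
The 250 bases before the RefSeq start were searched on both strands for GAGGAA (the core bound by PU.1), TTNNGNAA, AGATAA (bound by GATA factors) and TGTGGT (bound by RUNX factors), none of which contains another. Of 32851 RefSeq windows of this length, 23.3% held GAGGAA, 36.8% TTNNGNAA, 10% AGATAA and 14% TGTGGT. RefSeq windows were matched for 7 of the 9 receptor genes, and reach past the bases shown. GAGGAA was found 2 times for Csf2ra and once each for Kit, Csf3r and Il6ra. For Csf2ra and Csf3r, none of these matches lay wholly within the bases shown, which end before the GENCODE M21 start. TTNNGNAA was found 2 times for Il6ra and once each for Csf2ra and Il3ra, AGATAA once each for Il6ra and Epor, and TGTGGT once for Epor. Flt3 had no match to any of these. A match describes these letters in the window and shows no binding.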

How the data were processed

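The members and all gene lists were chosen with earlier results of these data known. The authors deposited 1 table of rlog values on the log2 scale, a transform read from its name and values. Per the submitters' processing notes, cutadapt 2.6, STAR 2.7.3, DESeq2 1.30.0 and build mm10 (GRCm38) were used; the counting tool, annotation and use of strand are not given in the sources used here. The 142699 lines, which repeat genes, were merged to 55487 genes, of which 54349 (97.9%) matched GENCODE M21 identifiers. limma 3.58.1 (eBayes with a mean-variance trend, no covariates) in R 4.3.3 was fitted to the deposited log2 values of the 18766 genes whose mean reached 3. Tested on simulated data over 18766 genes for DM against WT, it called 103 of 105 genes changed by 1 on the log2 scale, 73 of 95 changed by 0.5, and 13 unchanged genes. The simulated noise was independent for each gene, without deviations shared by many genes of a library. These numbers therefore do not give the error rate where libraries share such deviations. Differences between a receptor and a marker list were added after the values were seen. Genes named were the receptors, fixed partners and factors, and up to 4 called genes per pathway list with the largest changes; examples from the marker lists and other low or unchanged genes were named after their values were seen. Some genes of the lists, among them a called gene of the HoxA cluster, are not reported here. Coding sequences were aligned with Biopython 1.88, and plots used matplotlib 3.10.9. Alternatives were other filters (none, or a mean of 5), no trend, quantile normalization, median centring, a replicate block, and each library left out.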

Additional observations from a re-analysis of the deposited data

How the results depend on the processing

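The rise of Csf1r passed the threshold in all 12 alternative fits, between 0.61 and 0.86. The number of all tested genes past the threshold ran from 1119 to 3475 when 1 library was left out, against 2611 with all 6, and the number of receptor genes from 1 to 3, against 3. After quantile normalization 1 receptor gene passed. The change of Il6ra, which did not pass in any fit, ran from -0.03 to 0.27 when 1 library was left out, and was -0.01 without WT replicate 1; the cause was not tested. Within-library differences of the 6 receptor pairs kept their direction after quantile normalization and when any library was left out, with Csf1r minus Csf3r between 1.04 and 1.35 when 1 library was left out. Csf2ra minus Csf2rb was then between 0.05, without DM replicate 2, and 0.37, without DM replicate 1, Csf1r minus Kit between 0.33 and 0.73 with the same libraries left out, and Il6ra minus Il6st between -0.33 and -0.18, without WT replicate 2 and 3. Il3ra minus Csf2rb was -0.09 and Kit minus Flt3 0.29 after quantile normalization. The labels give the groups the same replicate numbers. Deviations from the group means of same-numbered libraries correlated at 0.49, 0.12 and 0.04 over the tested genes, and those of differently numbered libraries between -0.34 and 0.12. WT replicate 3 correlated more with DM replicate 2 (0.12) than with DM replicate 3. WT replicate 1 correlated at 0.49 with DM replicate 1, and at -0.34 and -0.16 with DM replicates 2 and 3. The main fit was planned without covariates, and these correlations do not settle whether the numbers mark pairs. Whether same-numbered libraries were handled together was not tested. With the replicate block, 5 receptor genes passed (3742 genes in all), Csf3r (-0.41, limma adjusted p 0.0215) and Csf2rb (0.32, 0.0163) being added, as was Il6st (0.0127) among the partners, and Flt3 kept its call (-0.3, 0.0369). Without counts no depth, counting interval or floor could be given, and a planned count-based alternative was not run.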
